A study of Mus musculus with 38 samples.

Results

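Ddit4, Cdkn1a and Sik2 are 3 of the 35682 genes counted in mouse cardiomyocytes, endothelial cells (ECs) and fibroblasts. They were chosen by their change in cardiomyocytes, so their cardiomyocyte values are given below as a description with no test. All tests of the 3 genes concern ECs and fibroblasts. The choice rested on the cardiomyocyte values, but it was made with earlier results of these data known.

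The libraries were made from hearts of adult male C57BL/6 mice, with material of a pair of hearts pooled in each. Sham mice had an open-chest operation after 6 weeks of daily oral vehicle, which was dimethylsulfoxide in saline. Control-AMI mice received the same vehicle and then 30 min of ischemia, by ligation of the left anterior descending coronary artery, and 2 h of reperfusion. EMPA–Pre-AMI mice had the same ischemia and reperfusion after 6 weeks of oral empagliflozin (EMPA), an inhibitor of the sodium-glucose cotransporter 2, at 10 mg/kg/d. Every AMI heart was therefore sampled 2 h after reflow, and no group received EMPA without AMI. Cardiomyocytes were purified by slow centrifugation and not sorted, whereas ECs were sorted as CD45-CD31+ cells and fibroblasts as CD45-CD31-CD90+ cells. Cardiomyocytes gave 13 libraries (Sham 4, Control-AMI 5, EMPA–Pre-AMI 4), ECs 13 (4, 4 and 5) and fibroblasts 12 (4 in each group).

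The 3 genes encode intracellular brakes on growth and transcription. Ddit4 encodes REDD1, a short-lived protein made in response to hypoxia, glucocorticoids, DNA damage and energy stress, which inhibits the kinase complex mTORC1 through the TSC1-TSC2 complex. Cdkn1a encodes p21, an inhibitor of cyclin-dependent kinases and a classical target of the transcription factor p53, also induced by several p53-independent stress signals. Sik2 encodes salt-inducible kinase 2, which is activated by the kinase LKB1, inhibited by protein kinase A, and holds the CREB coactivators of the CRTC family and class IIa histone deacetylases in the cytoplasm by phosphorylating them.

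In the GRCm39 annotation, Ddit4 (ENSMUSG00000020108) lies on the minus strand at chr10:59785491-59788492. Cdkn1a (ENSMUSG00000023067) lies on the plus strand at chr17:29309936-29319701, and 2 antisense transcripts annotated across it, Dino and Gm64878, had no counts of their own here. Sik2 (ENSMUSG00000037112) lies on the minus strand at chr9:50800947-50920383. Its 3′ end overlaps the 3′ end of Ppp2r1b, a protein phosphatase subunit gene on the opposite strand, over 10441 bases, exons included. Whether the counting used strand is not given in the sources used here, so reads from the overlap may have been shared between both genes.

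Upstream sequences of the members were taken from the RefSeq promoter table, made on GRCm38.p6, and placed on GRCm39 by an exact match. Letters were searched on both strands of the 250 bases before each RefSeq start: the hypoxia response cores ACGTG and GCGTG, the cyclic AMP response core TGACG and its full element TGACGTCA (which contains the core), the amino acid response letters TGATGNAAT, the TATA box TATAAA, the glucocorticoid response core TGTTCT and the p53 decamer, a motif of 10 bases that occurs in pairs in many p53 sites. The Ddit4 window held 1 ACGTG and 1 GCGTG, letters found in 16.6% and 28.2% of 32851 windows. Both sites are shown because hypoxia is one of the known inducers of this gene. They lie within an exon of a longer annotated Ddit4 transcript, upstream of the canonical start. Capitals mark the core.
Ddit4, ACGTG site, GRCm39 chr10:59787763-59787792, minus strand: gagaacgttgcgaACGTGcgcccggtgcct
Ddit4, GCGTG site, GRCm39 chr10:59787691-59787720, minus strand: cgacctggaggggGCGTGgcctcgccggga

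Cdkn1a has 2 RefSeq starts. The window of the upstream start held 2 p53 decamers, which were present in 7.13% of windows, and the 10 bases after the second of them matched the decamer at 9 of 10 positions. The window of the downstream start, next to the canonical one, held 1 GCGTG. Both are shown up to the first annotated exon, with the matched letters in capitals, because p53 is the best known regulator of the gene.
Cdkn1a, upstream start, GRCm39 chr17:29309703-29309935, plus strand: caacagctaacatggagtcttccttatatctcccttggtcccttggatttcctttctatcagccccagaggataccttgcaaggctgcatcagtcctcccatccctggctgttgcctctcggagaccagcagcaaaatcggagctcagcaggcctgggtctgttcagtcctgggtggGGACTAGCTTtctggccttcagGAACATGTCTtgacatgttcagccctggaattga
Cdkn1a, downstream start, GRCm39 chr17:29312493-29312737, plus strand: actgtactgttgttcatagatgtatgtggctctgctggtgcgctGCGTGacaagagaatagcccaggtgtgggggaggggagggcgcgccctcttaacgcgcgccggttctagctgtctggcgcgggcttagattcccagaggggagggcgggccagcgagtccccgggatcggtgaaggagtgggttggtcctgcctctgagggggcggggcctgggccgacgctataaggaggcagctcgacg
The Sik2 window held none of the letters searched, and no window of the 3 genes held the cyclic AMP core, its full element, the amino acid response letters, the TATA box or the glucocorticoid core. Those 5 motifs were present in 17.8%, 1.55%, 0.816%, 12.4% and 16.1% of all windows. These matches describe letters only.

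Cardiomyocyte libraries held 2031716 to 4509284 counts, EC libraries 1352514 to 2195308 and fibroblast libraries 1946056 to 2821373. Mitochondrially encoded genes took 46.6% to 66.01% of the cardiomyocyte counts and at most 14.6% elsewhere, so levels were scaled within each population unless stated otherwise. They are given as CPM, counts scaled to a common library size with TMM factors. Marker sums were scaled over all libraries, and those of each population were highest in its own libraries. The unsorted cardiomyocytes also held endothelial marker sums of 1538 to 2139 CPM in Sham, 1406 to 2675 in Control-AMI and 1160 to 2626 in EMPA–Pre-AMI. On that scale Control-AMI ECs averaged 410.9 CPM of Ddit4 and 958.4 of Cdkn1a, against 152.7 and 483.5 in Control-AMI cardiomyocytes. The part of other cells in the Ddit4 and Cdkn1a values of cardiomyocytes was not tested. In ECs, the summed level of 10 fibroblast markers was 1495 to 5550 CPM in Control-AMI against 420 to 1107 in Sham and 375 to 747 in EMPA–Pre-AMI, and that of 10 endothelial markers was 4821 to 6544 in Control-AMI against 9190 to 9971 in Sham. Replicate 4 of the EMPA–Pre-AMI cardiomyocytes stood apart: without it, 1498 genes passed the test against Control-AMI in place of 2. Its sample-sheet number in the labels was above 36, as were those of all Sham and Control-AMI cardiomyocytes, whereas the other 3 EMPA–Pre-AMI libraries had numbers from 13 to 32. For those 3, treatment and sample-sheet range cannot be told apart. EC Sham replicate 2 and fibroblast Sham replicate 1 also stood apart from their groups in Ddit4 or Cdkn1a. All 3 genes passed the filter on low counts in every population, Sik2 in cardiomyocytes only through the groups where it was higher.

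In cardiomyocytes, Ddit4 was higher in Control-AMI than in Sham and higher again in EMPA–Pre-AMI. It measured 19.4, 29.6, 22.2 and 26.95 CPM in the 4 Sham libraries, 72.4, 68.0, 62.4, 75.3 and 61.7 in Control-AMI, and 166.8, 186.3, 163.8 and 110.1 in EMPA–Pre-AMI. None of the 3 groups overlapped with another. Groups without overlap were seen in 2.47% of the 9167 genes tested for Control-AMI against Sham, in 5.97% for EMPA–Pre-AMI against Control-AMI and in 7.88% for EMPA–Pre-AMI against Sham. The group means were 24.6 ± 4.58 CPM (SD, n = 4), 68.0 ± 6.02 (n = 5) and 156.8 ± 32.7 (n = 4), which put Control-AMI at 2.77 times Sham and EMPA–Pre-AMI at 2.31 times Control-AMI. The lowest EMPA–Pre-AMI value was that of replicate 4, the only one within the sample-sheet range of the Control-AMI libraries, and it still lay above all of them.

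Ddit4 also rose after AMI in ECs. Sham ECs measured 108.5, 407.9, 115.8 and 115.9 CPM, Control-AMI ECs 501.2, 704.4, 773.9 and 585.2, and EMPA–Pre-AMI ECs 1452, 856.4, 848.8, 679.6 and 826.5. Sham replicate 2 stood well above the other 3 Sham libraries, yet below every library of both AMI groups. The Control-AMI mean was 641.2 ± 121.6 (SD, n = 4) against 187.0 ± 147.3 in Sham, a log2 fold change of 1.77 (SE 0.44, 95% CI 0.81 to 2.73, FDR 0.0356 by edgeR's quasi-likelihood test), in a comparison where 6.56% of 10438 genes passed and 11.3% had groups that did not overlap. This call was narrow: it was lost, at FDR of 0.0542 to 0.0963, when any one of Sham replicates 1, 3 and 4 or of the 4 Control-AMI libraries was left out, and it became firmer without Sham replicate 2 (log2 fold change 2.51, FDR 7.69e-06). The EC library with the highest fibroblast marker sum, Control-AMI replicate 1, had the lowest Ddit4 of its group. Summed levels of 10 leukocyte markers also moved with AMI in ECs, at 2.76 to 21.5 CPM in Sham, 22.1, 33.1, 417.8 and 38.5 in Control-AMI and 9.51 to 84.8 in EMPA–Pre-AMI, with Adgre1 and Cd3e at 0 in Sham, Cd79a in Control-AMI and Cd3e in EMPA–Pre-AMI. Control-AMI replicate 3, with 417.8 CPM of them, had the highest Ddit4 of its group, and without it the log2 fold change of Ddit4 after AMI was 1.66 (FDR 0.0733). The part of other cells in the Ddit4 and Cdkn1a values of ECs was not tested.

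EMPA–Pre-AMI ECs had a mean Ddit4 of 932.7 ± 299.2 CPM (SD, n = 5), overlapping with Control-AMI. The log2 difference of EMPA–Pre-AMI from Control-AMI was 0.54 (SE 0.40, 95% CI -0.34 to 1.42, FDR 0.690), an interval that holds 0 as well as the log2 ratio of 1.21 seen in cardiomyocytes. Of all genes in this comparison, 2.63% passed the test and 4.21% had groups without overlap. Against Sham, the EMPA–Pre-AMI value rose by a log2 fold change of 2.31 (SE 0.43, FDR 0.0148), where 2.71% of genes passed and 6.56% had groups without overlap. Leaving out Sham replicate 3 took this FDR to 0.0520.

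In fibroblasts Ddit4 also rose after AMI, with a smaller error. The Sham libraries measured 130.6, 88.0, 51.2 and 59.4 CPM, the Control-AMI libraries 204.3, 206.5, 338.2 and 419.0, and the EMPA–Pre-AMI libraries 290.6, 229.5, 234.0 and 347.2. Every fibroblast library of either AMI group lay above every Sham library. For Control-AMI against Sham the log2 fold change was 1.82 (SE 0.30, 95% CI 1.19 to 2.46, FDR 0.00269), in a comparison where 4.16% of 10691 genes passed and 12.3% did not overlap. EMPA–Pre-AMI against Sham gave 1.74 (SE 0.30, FDR 0.00367), with 5.11% of genes called and 11.8% without overlap. Between EMPA–Pre-AMI and Control-AMI the log2 difference was -0.08 (SE 0.29, 95% CI -0.70 to 0.53, FDR 1.00), where 0% of genes passed and 1.78% had groups without overlap. That comparison had 0 genes called by edgeR and 0 by DESeq2, with 170 genes at an unadjusted p under 0.05.

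The fibroblast Sham group differed from the others in its sample-sheet numbers, 3 of its 4 libraries being numbered 1 to 8 and replicate 1 being above 36. Within numbers 1 to 8, which hold 3 Sham libraries, 1 Control-AMI and 1 EMPA–Pre-AMI library, the log2 fold change of Ddit4 after AMI was 2.69 (FDR 0.000446). Within numbers above 36, with 1 Sham and 3 Control-AMI libraries, it was 0.94 (FDR 0.105). Lone libraries were assumed to vary like the other groups in these fits. Among EC libraries numbered 9 to 24, from 3 Sham libraries, 2 of Control-AMI and 3 of EMPA–Pre-AMI, it was 1.80 (FDR 0.254). The direction was the same in these 3 fits, and the call was made in the first of them alone.

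**Figure D1:**
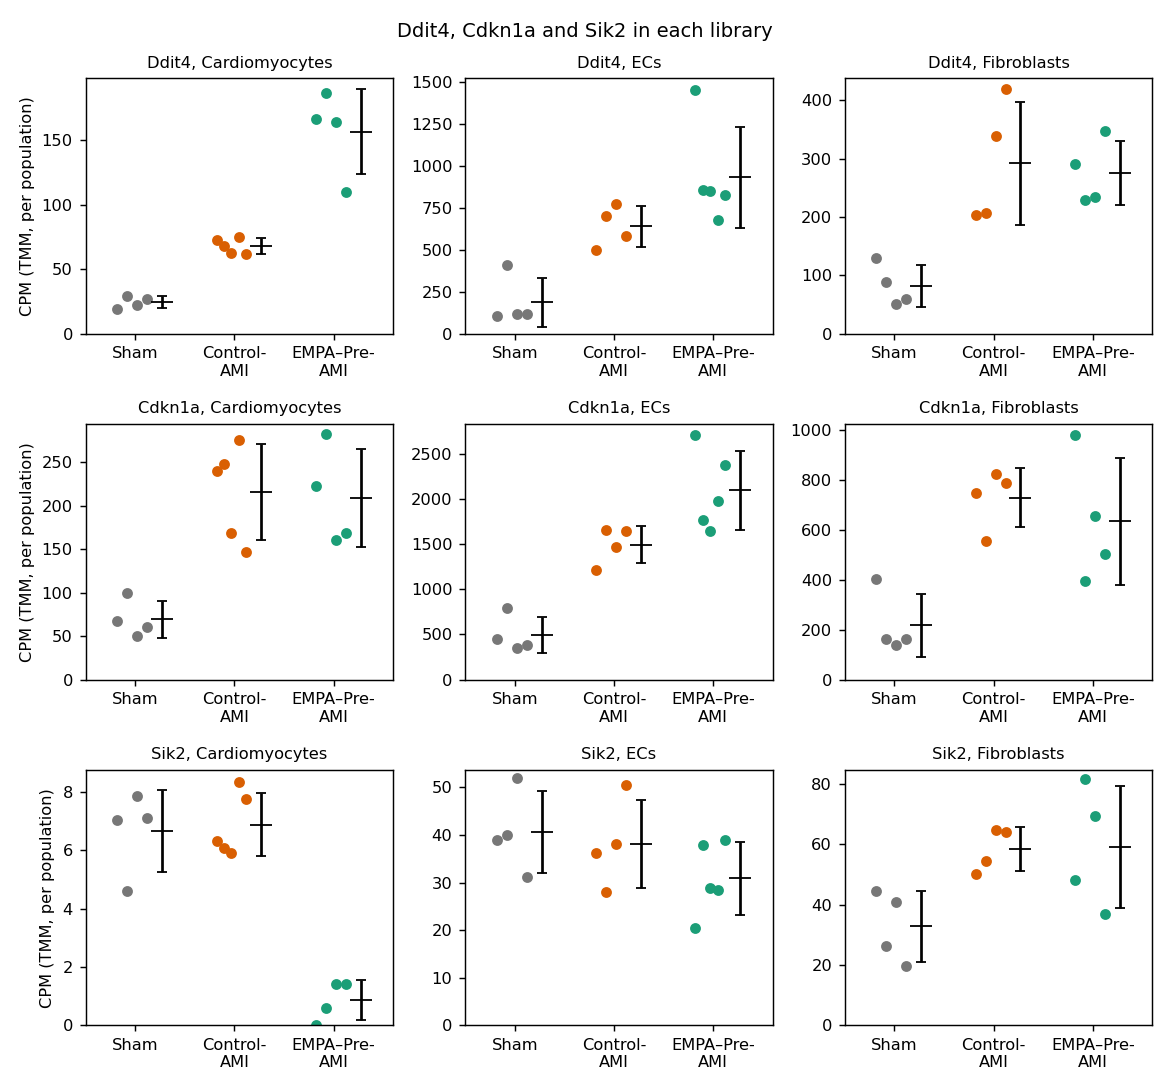
Level of Ddit4, Cdkn1a and Sik2 (rows) in each library of cardiomyocytes, ECs and fibroblasts (columns), in CPM with TMM factors of each population, on linear axes from 0 that differ between panels. Points are libraries, horizontal marks are group means and bars are SD; Ddit4 and Cdkn1a are above Sham in nearly all AMI libraries of every population, and Sik2 is near 0 only in EMPA–Pre-AMI cardiomyocytes, at 0 to 1.41 CPM.

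Cdkn1a in cardiomyocytes was higher after AMI with or without EMPA. The Sham libraries measured 67.3, 99.5, 50.3 and 61.02 CPM, the Control-AMI libraries 240.1, 247.4, 168.5, 275.0 and 147.2, and the EMPA–Pre-AMI libraries 222.9, 281.9, 161.0 and 168.9. Both AMI groups lay wholly above Sham, where 2.47% (Control-AMI) and 7.88% (EMPA–Pre-AMI) of genes did not overlap, and they overlapped with each other. Control-AMI averaged 3.10 times Sham (215.6 ± 54.8 against 69.5 ± 21.2 CPM), and EMPA–Pre-AMI averaged 0.968 times Control-AMI.

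In ECs, Cdkn1a rose after AMI. Its Sham levels were 453.6, 790.1, 346.0 and 386.6 CPM, those of Control-AMI 1209.6, 1658, 1472 and 1642, and those of EMPA–Pre-AMI 2707, 1765, 1648, 1981 and 2373. Sham replicate 2, the library with high Ddit4, also had the highest Sham value of Cdkn1a. The rise from Sham to Control-AMI was 1.60 on the log2 scale (SE 0.23, 95% CI 1.12 to 2.07, FDR 0.000535), ranking 19th by p among the genes tested. It stayed under an FDR of 0.05 with each library left out, and had an FDR of 0.0677 among the libraries numbered 9 to 24, at a log2 fold change of 1.63.

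EMPA–Pre-AMI ECs averaged 1.40 times the Cdkn1a of Control-AMI ECs (2095 ± 439.7 against 1495 ± 208.2 CPM), with overlapping groups. The log2 fold change was 0.49 (SE 0.21, 95% CI 0.04 to 0.93), and its FDR of 0.327 did not pass. Against Sham it was 2.08 (SE 0.22, FDR 4.10e-05), the second smallest p of all genes in that comparison.

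Fibroblasts carried 404.3, 164.1, 138.8 and 163.3 CPM of Cdkn1a in Sham, 748.6, 557.5, 824.6 and 789.4 in Control-AMI, and 979.8, 395.3, 656.6 and 505.7 in EMPA–Pre-AMI. The Sham value of replicate 1 was more than any other Sham library and above 1 EMPA–Pre-AMI library, while all Control-AMI libraries lay above Sham. Control-AMI exceeded Sham by 1.74 on the log2 scale (SE 0.34, 95% CI 1.01 to 2.48, FDR 0.0106), and by 2.23 (FDR 0.000163) without Sham replicate 1. EMPA–Pre-AMI exceeded Sham by 1.54 (SE 0.34, FDR 0.0194), a call lost on leaving out any one of Sham replicates 2, 3 and 4 (FDR 0.0543 to 0.0734). The difference between EMPA–Pre-AMI and Control-AMI was -0.20 (95% CI -0.91 to 0.51, FDR 1.00). Within sample-sheet numbers 1 to 8 the Cdkn1a rise after AMI was 2.38 (FDR 0.000277), and within those above 36 it was 0.82 (FDR 0.268).

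Sik2 behaved differently. Sham cardiomyocytes measured 7.04, 4.61, 7.87 and 7.12 CPM, and Control-AMI cardiomyocytes 6.31, 6.09, 5.91, 8.33 and 7.75, so that these groups overlapped throughout. EMPA–Pre-AMI cardiomyocytes measured 0, 0.605, 1.41 and 1.41 CPM, all below every library of the other groups. Groups without overlap were seen in 5.97% of genes against Control-AMI and in 7.88% against Sham. The EMPA–Pre-AMI values of Sik2 rest on 0, 1, 5 and 4 counts, 10 in all, against 95 in Sham and 108 in Control-AMI. For replicate 1, with none, up to 3 counts remain possible, which would be 1.48 CPM there before scaling with TMM factors. The mean of EMPA–Pre-AMI was 0.857 ± 0.686 CPM (SD, n = 4), and that of Control-AMI, 6.88 ± 1.09 (n = 5), was 8.03 times as high.

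The 4 EMPA–Pre-AMI cardiomyocyte libraries also differed in other ways. Summed levels of 10 fibroblast markers were 482 to 2740 CPM there, against 2063 to 4506 in Control-AMI and 2450 to 3562 in Sham, and replicates 2 and 4, with 2404 and 2740, had Sik2 values of 0.605 and 1.41. Scaled over all libraries, Sik2 averaged 22.3 CPM in Sham fibroblasts and 15.1 in Sham cardiomyocytes, with overlapping ranges. In bulk samples fewer cells of a type and less RNA per cell cannot be told apart. The part of other cells in the Sik2 difference was not tested. The neighbor Ppp2r1b, which shares the 3′ overlap, had 4, 8, 6 and 5 counts in the EMPA–Pre-AMI cardiomyocytes and 1 to 6 in the other libraries. It did not pass the filter on low counts there. The part of reads from the overlap in the Sik2 difference was not tested.

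No loss of Sik2 was seen in ECs. The Sham libraries measured 38.9, 39.9, 52.1 and 31.2 CPM, Control-AMI 36.3, 28.0, 38.1 and 50.4, and EMPA–Pre-AMI 20.5, 37.8, 28.8, 28.4 and 38.9, with overlap between all groups. The log2 fold change was -0.09 after AMI (95% CI -0.59 to 0.40, FDR 0.880) and -0.30 for EMPA–Pre-AMI against Control-AMI (95% CI -0.78 to 0.17, FDR 0.684). The second interval lies wholly above the log2 ratio of -3.01 in cardiomyocytes. That ratio rests on 10 counts in EMPA–Pre-AMI and belongs to the values by which Sik2 was chosen, so setting it beside ECs is a description.

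Fibroblast Sik2 was higher after AMI without passing the test. Values were 44.7, 26.4, 40.8 and 19.8 CPM in Sham, 50.2, 54.4, 64.9 and 64.2 in Control-AMI, and 48.3, 81.6, 69.6 and 36.96 in EMPA–Pre-AMI. The Control-AMI libraries all lay above Sham, with a log2 fold change of 0.83 (SE 0.28, 95% CI 0.24 to 1.41, FDR 0.106), one of the 12.3% of genes without overlap. EMPA–Pre-AMI gave 0.84 against Sham (FDR 0.0905) and 0.02 against Control-AMI (95% CI -0.56 to 0.59, FDR 1.00). Without Sham replicate 1, the highest of its group for all 3 genes, EMPA–Pre-AMI against Sham passed at a log2 fold change of 1.03 (FDR 0.0435).

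**Figure D2:**
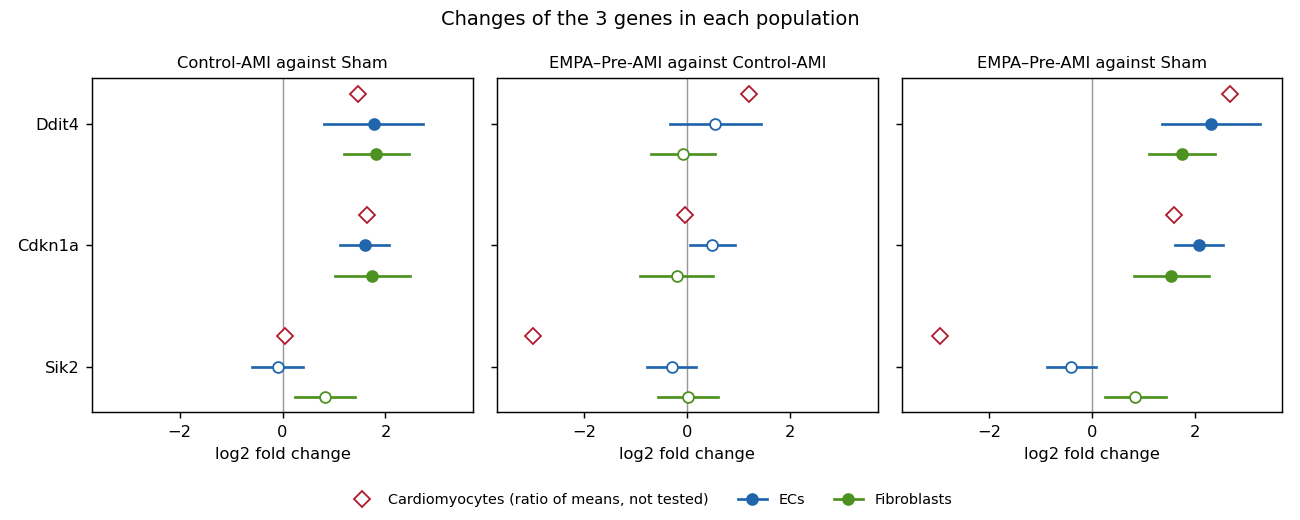
Log2 fold changes of the 3 genes (rows) in 3 comparisons (panels): circles are edgeR estimates in ECs and fibroblasts with 95% CI, filled where the FDR was below 0.05, and diamonds are log2 ratios of group means in cardiomyocytes, with no test. Ddit4 and Cdkn1a lie to the right of 0 in both comparisons with Sham, while for EMPA–Pre-AMI against Control-AMI no circle is filled and the Sik2 diamond of cardiomyocytes lies at -3.01.

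The effects of AMI on ECs and fibroblasts were compared directly in 1 model of the 25 libraries. It treats them as independent, although ECs and fibroblasts of the same hearts may be among them. For Ddit4, the AMI effect in ECs minus that in fibroblasts was -0.07 (95% CI -1.16 to 1.02, FDR 0.982), and for Cdkn1a it was -0.17 (95% CI -1.06 to 0.72, FDR 0.942). The sign of these differences turned on single libraries: without EC Sham replicate 2 they were 0.64 and 0.14. For Sik2 the difference was -0.95 (SE 0.38, 95% CI -1.73 to -0.17), with an FDR of 0.212 in a test that called 3.26% of 11615 genes. For the effect of EMPA within AMI, ECs minus fibroblasts came to 0.65 for Ddit4 (95% CI -0.41 to 1.71, FDR 0.900), 0.72 for Cdkn1a (95% CI -0.15 to 1.58, FDR 0.769) and -0.30 for Sik2 (95% CI -1.06 to 0.46, FDR 0.970), where 2.09% of genes passed. None of these 6 differences passed the test.

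Before any ischemia, ECs and fibroblasts did differ. Sham ECs exceeded Sham fibroblasts by 1.12 on the log2 scale for Ddit4 (SE 0.38, FDR 0.0220) and by 1.11 for Cdkn1a (SE 0.31, FDR 0.00516), in a comparison in which 39.9% of genes passed. Sik2 did not pass, at 0.25 (95% CI -0.31 to 0.80, FDR 0.508). The Ddit4 difference rested on EC Sham replicate 2, without which it was 0.40 (FDR 0.308), and it was also lost on leaving out fibroblast Sham replicate 3 or 4 (FDR 0.0818 and 0.0787). Without both EC Sham replicate 2 and fibroblast Sham replicate 1 it was 0.70 (FDR 0.0505), whereas the Cdkn1a difference stayed below an FDR of 0.05 with each library left out.

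Scaled over all 38 libraries, Ddit4 was lowest in Sham fibroblasts (55.7 ± 24.4 CPM) and Sham cardiomyocytes (55.7 ± 10.0) and highest in EMPA–Pre-AMI ECs (587.6 ± 190.6). Sham cardiomyocytes, with a highest value of 66.7 CPM, lay barely below Sham ECs (118.6 ± 95.4, lowest value 67.2), the next in order. All other neighbors in the order of the 9 groups overlapped. Cdkn1a likewise ran from 147.3 ± 85.2 CPM in Sham fibroblasts to 1320 ± 284.2 in EMPA–Pre-AMI ECs, with a single gap, between Control-AMI fibroblasts (499.6 ± 81.9) and Control-AMI ECs (958.4 ± 132.9). For Sik2 the order ran from EMPA–Pre-AMI cardiomyocytes (1.90 ± 1.59), which did not overlap with Sham cardiomyocytes (15.1 ± 3.29), to Control-AMI (40.01 ± 5.09) and EMPA–Pre-AMI fibroblasts (40.3 ± 13.8), with ECs and Sham fibroblasts between. The Control-AMI fibroblasts did not overlap with Sham ECs (25.5 ± 5.50), the group below them. Levels set across populations on this scale depend on the share of each library that mitochondrial counts take. The share of all genes with such gaps between these groups was not counted, so the gaps are not results about the 3 genes.

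With the mean of each population subtracted, the gene whose log2 CPM followed Ddit4 most closely over 38 libraries, of 12084 genes, was Cdkn1a (Pearson's r = 0.905), and the reverse held as well. Mt2, a metallothionein, and Nfkbia, which encodes the NF-kappaB inhibitor IkappaB-alpha, followed for Ddit4 (r = 0.877 and 0.876), before Cebpd and Bcl2l1. Cdkn1a was followed by Mt2, Klf9, Nfkbia and Csrnp1 (r = 0.843 to 0.865). In the 25 EC and fibroblast libraries alone, r between Ddit4 and Cdkn1a was 0.943, and both genes had Map3k6 next (r = 0.925 and 0.935). The other 3 nearest genes to Ddit4 there were Nfkbia, Fam107a and Slc10a6 (r = 0.898 to 0.908), and those to Cdkn1a were Csrnp1, Mt1 and Klf9 (r = 0.884 to 0.900). The libraries share the 3 treatment groups, their depth ranges and the hearts that may lie behind several of them, so r describes them and tests nothing.

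Sik2 had looser companions. The closest over 38 libraries were Kif24, Mapkbp1, Pcdhb22, Ahi1 and Ccdc88a (r = 0.775 to 0.792), and in ECs and fibroblasts alone they were Zfp948, Nckipsd, Cald1, Cpne7 and Ate1 (r = 0.750 to 0.778). No gene stood in both of these sets. The first set includes the cardiomyocyte values by which Sik2 was chosen, which rest on 0 to 5 counts per library in EMPA–Pre-AMI.

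**Figure D3:**
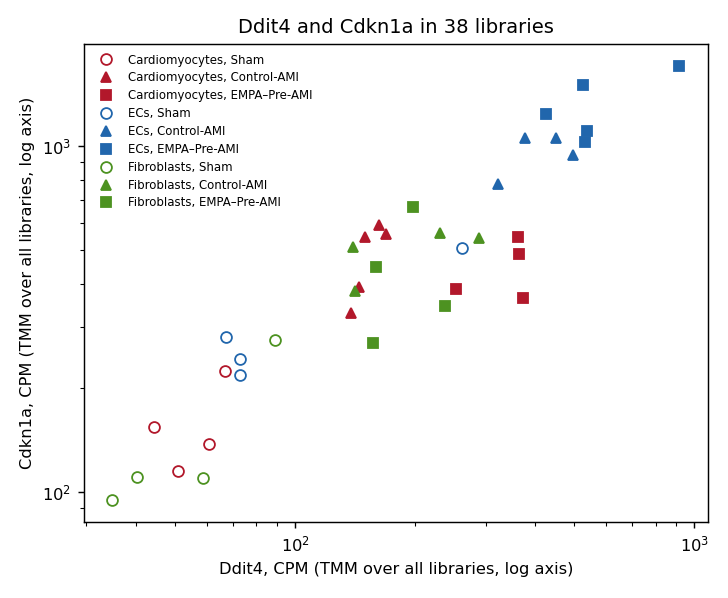
Cdkn1a against Ddit4 in each of the 38 libraries, both in CPM with TMM factors over all libraries on log axes, with colors for populations and symbols for groups. Sham libraries occupy the lower left and EC libraries of both AMI groups the upper right (r = 0.905), and the Sham EC library apart from the others (open blue circle) is replicate 2, at 262 CPM of Ddit4.

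Other genes of the same pathways were followed in lists that exclude the 3 members. Of all genes tested, 6.56% passed after AMI in ECs and 4.16% in fibroblasts. For EMPA–Pre-AMI against Control-AMI these shares were 2.63% and 0%, and against Sham 2.71% and 5.11%. List counts near these shares are not results about a list. Among regulators and readouts of mTORC1, 2 of 21 tested genes passed after AMI in ECs: Castor1, an arginine sensor of the pathway, rose (log2 fold change 1.05, FDR 0.0430) and Eif4ebp2, a translational repressor that mTORC1 phosphorylates, fell by 0.66 (FDR 0.0280). Without EC Sham replicate 2 Castor1 was called and Eif4ebp2 was not, and among the EC libraries numbered 9 to 24 neither was. In fibroblasts 1 of 21 passed, Eif4ebp1 (1.10, FDR 0.0239). The median log2 fold change of the list was 0.03 in ECs and -0.11 in fibroblasts, beside -0.01 and -0.03 over all genes tested. Txnip, a glucose-responsive gene of the list, was the 1 of 21 that rose in EMPA–Pre-AMI against Control-AMI ECs (0.75, FDR 0.0181). Relative to Sham, EMPA–Pre-AMI ECs had 3 genes higher, among them Castor1 (1.43, FDR 0.00657) and Sesn1 (1.07, FDR 0.0192). The count was 2 without EC Sham replicate 2, where Sesn1 was not called, and 0 among the libraries numbered 9 to 24, where Txnip was not called against Control-AMI either. EMPA–Pre-AMI fibroblasts had 1 gene higher than in Sham, Deptor, an mTOR inhibitor (1.16, FDR 0.0139).

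None of the 3 partners of Ddit4 passed after AMI. Ddit4l, its paralog, had a log2 fold change of -1.13 after AMI in ECs (FDR 0.269) and -0.13 in fibroblasts (FDR 0.942). For Sesn2, a stress-induced inhibitor of mTORC1, the values were 0.56 (FDR 0.681) and 0.16 (FDR 0.920), and for Tsc2, the subunit through which REDD1 acts, -0.02 (FDR 0.978) and 0.26 (FDR 0.629). In cardiomyocytes neither Ddit4l nor Sesn2 passed the filter, and Tsc2 had 0.33 after AMI (FDR 1.00).

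Among p53 and its other targets, 0 of 24 tested genes passed after AMI in ECs by edgeR, with 7 at an unadjusted p under 0.05 and 1 called by DESeq2, and the median was 0.12. The count was 1 without EC Sham replicate 2 (Fas) and 1 among the libraries numbered 9 to 24 (Gadd45a), both named after their values were seen. Fibroblasts had 3 of 21 called: Plk3 (2.21, FDR 0.00352), a stress-responsive kinase, and Gadd45a (1.58, FDR 0.0112), a DNA damage response gene, rose, and the apoptosis gene Bbc3 fell by 1.36 (FDR 0.0401). The fibroblast median was -0.05. Trp53 itself had 0.10 in ECs (FDR 0.911) and -0.30 in fibroblasts (FDR 0.651). Mdm2, the p53 ubiquitin ligase and target, had 0.23 (FDR 0.513) and 0.42 (FDR 0.239), and the target Ccng1 had -0.10 (FDR 0.865) and -0.45 (FDR 0.288). In EMPA–Pre-AMI ECs against Sham, 4 of 24 were higher, led by the death receptor gene Fas (1.53, FDR 0.00121) and Trp53inp1 (1.08, FDR 0.0162). Without EC Sham replicate 2 only these 2 of the list were called, and among the libraries numbered 9 to 24 only Fas was.

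Few cell cycle genes around p21 were called. Of the G1 cyclins, cyclin-dependent kinases and their inhibitors, 0 of 15 passed after AMI in ECs (1 at an unadjusted p under 0.05, 0 by DESeq2). Ccnd1, which encodes cyclin D1, was the 1 of 14 that rose in fibroblasts (275.3 ± 24.7 CPM in Sham, 395.9 ± 25.0 in Control-AMI, log2 fold change 0.52, FDR 0.0441), a call lost without Sham replicate 1. For EMPA–Pre-AMI against Sham fibroblasts Ccnd1 had 0.78 (FDR 0.00393), a call kept without that library. The sister inhibitors did not pass: Cdkn1b, which encodes p27, had -0.08 in ECs (FDR 0.861) and -0.59 in fibroblasts (FDR 0.112), and Cdkn1c, which encodes p57, had -0.31 (FDR 0.292) and 0.06 (FDR 0.921).

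Of the other SIK kinases and their partners, Sik1, the cyclic AMP-inducible member, averaged 32.2 ± 3.44 CPM in Sham ECs and 66.9 ± 22.1 in Control-AMI ECs, a rise of 1.05 on the log2 scale (SE 0.24, FDR 0.00970), and was 1.74 above Sham in EMPA–Pre-AMI (FDR 0.000136). Sik3 had 0.43 in ECs (FDR 0.377) and -0.01 in fibroblasts (FDR 0.981). The class IIa deacetylase gene Hdac5 fell by 0.86 (FDR 0.0104), making 2 of 20 genes called, of which Sik1 alone was called among the libraries numbered 9 to 24. In fibroblasts 0 of 19 passed (5 at an unadjusted p under 0.05, 0 by DESeq2), where Sik1 had 1.15 (FDR 0.183). Crtc3, a coactivator that SIK kinases restrain, had 0.60 in ECs (FDR 0.140) and -0.29 in fibroblasts (FDR 0.299). Crtc1 had -0.39 in both (FDR 0.693 and 0.547), and Crtc2 passed the filter in no population.

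CREB targets are the genes whose coactivators SIK kinases restrain. After AMI, 3 of 18 passed in ECs, all higher, and 4 of 18 in fibroblasts, all higher, with list medians of 0.63 and 0.76. In ECs these included Irs2, an insulin signaling adaptor (2.24, FDR 0.0101), and the orphan nuclear receptor gene Nr4a3 (1.74, FDR 0.00298). The same pair made up the 2 of 18 that fell in EMPA–Pre-AMI against Control-AMI, Irs2 by 1.91 (FDR 0.0250) and Nr4a3 by 1.47 (FDR 0.0101). Among the EC libraries numbered 9 to 24, neither was called in either comparison, and 1 of 18, Sik1, was called after AMI. The fibroblast marker sums of ECs given above were likewise highest in Control-AMI, and Irs2 measured 69.1 CPM in Sham fibroblasts against 5.89 in Sham ECs, each scaled within its population. The part of other cells in these values was not tested. In fibroblasts Rgs2 (1.62, FDR 0.00556) and Irs2 (1.41, FDR 0.00863) led the list.

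Known inducers of Ddit4 were followed through their other targets. Glucocorticoid targets gave the largest share of calls of the 8 lists after AMI: 7 of 15 were higher in ECs and 6 of 14 in fibroblasts, with 0 lower in either, and medians of 1.02 and 1.20. The lists were chosen with earlier results of these data known, so the order of their shares is a description. Zbtb16, a transcription factor gene induced by glucocorticoids, averaged 12.8 ± 11.4 CPM in Sham ECs and 223.2 ± 70.2 in Control-AMI ECs (log2 fold change 4.14, FDR 0.00428), and 43.3 ± 15.7 and 281.1 ± 60.2 in fibroblasts (2.70, FDR 4.62e-05). Fkbp5, a chaperone of the glucocorticoid receptor, was at 20.4 ± 7.54 in Sham and 184.9 ± 60.9 in Control-AMI ECs (3.17, FDR 0.000275), and Errfi1 rose in fibroblasts (1.94, FDR 0.00427). Without EC Sham replicate 2, 8 of 15 were called in ECs, and 4 of 15 among the libraries numbered 9 to 24, Fkbp5 included and Zbtb16 not. Without fibroblast Sham replicate 1, 8 of 14 were called in fibroblasts. In EMPA–Pre-AMI against Control-AMI, 0 passed in either population (2 of 15 and 1 of 14 at an unadjusted p under 0.05, 0 by DESeq2).

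Targets of the hypoxia-inducible factors had 5 higher and 1 lower of 22 in ECs after AMI, and 3 higher of 21 in fibroblasts. Hk2, which encodes hexokinase 2, led in ECs (2.82, FDR 0.00315) and rose in fibroblasts (1.89, FDR 0.00472). Like Irs2 it was more abundant in Sham fibroblasts (85.1 CPM) than in Sham ECs (4.02). Next were the glycolysis regulator Pfkfb3 in ECs (1.89, FDR 0.0425) and the glucose transporter gene Slc2a1 in fibroblasts (1.98, FDR 0.00678). Egln1, an oxygen sensor and itself a target, fell by 0.82 in ECs (FDR 0.00588). Pfkfb3 was not called without EC Sham replicate 2, and among the EC libraries numbered 9 to 24 the test called 3 of 22 genes, with none of Hk2, Pfkfb3 and Egln1 among them. Those 3, Bhlhe40, Adm and Bnip3, are named after their values were seen. The list medians were 0.12 and 0.33. Genes of the integrated stress response had 2 of 14 higher in ECs, Cebpb (3.01, FDR 0.00350) and Nupr1 (2.28, FDR 0.0202), and 1 of 16 in fibroblasts, Cebpb (2.20, FDR 0.0393), with medians of 0.60 and 0.19. The EC count was 0 among the libraries numbered 9 to 24, and without fibroblast Sham replicate 1 Cebpb was not called in fibroblasts, where 2 other genes of the list were, Ppp1r15a and Atf4, which are named after their values were seen.

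**Figure D4:**
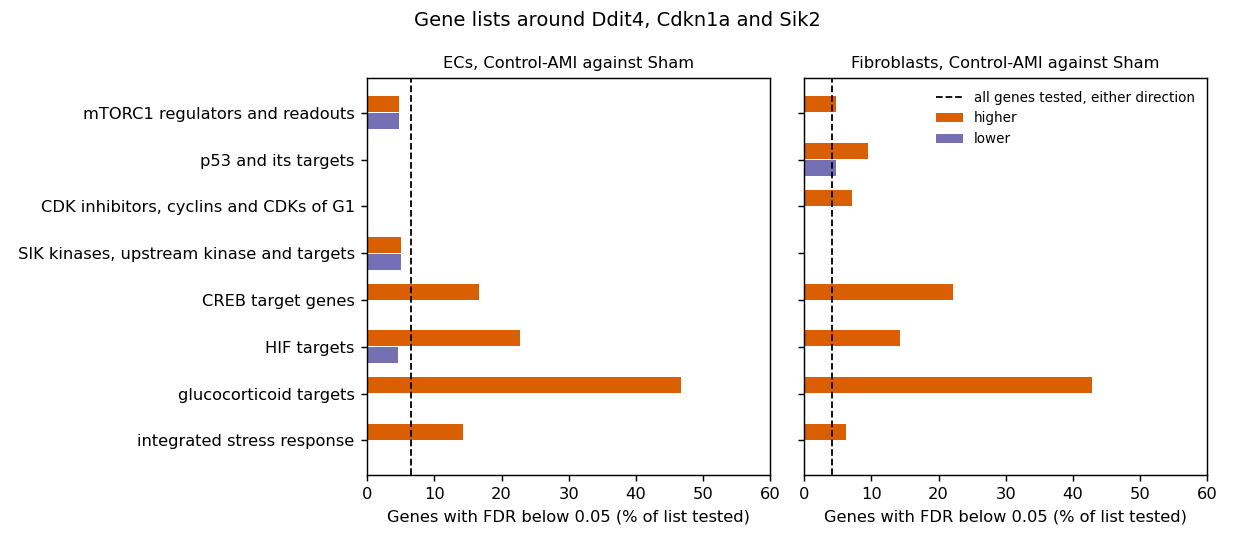
Share of each list's tested genes that were higher (orange) or lower (purple) in Control-AMI than in Sham at an FDR below 0.05, in ECs and fibroblasts, with a dashed line at the share of all genes tested that passed in either direction (6.56% and 4.16%). The 3 members are left out of the lists, some genes stand in more than 1 list, and the longest bars are those of the glucocorticoid targets, with 7 of 15 genes in ECs and 6 of 14 in fibroblasts.

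In cardiomyocytes, where the test called 0.0655% of genes after AMI and 0.0218% for EMPA–Pre-AMI against Control-AMI, these lists gave few calls. After AMI the integrated stress response gene Chac1, a glutathione-degrading enzyme, was the only one that edgeR called in any of the 8 lists. It had 6.23 ± 1.67 CPM against 0.784 ± 0.391 in Sham (log2 fold change 2.96, FDR 0.0301). DESeq2 also called 1 gene in each of the mTORC1 and p53 lists. All 13 glucocorticoid targets tested had positive fold changes, with a median of 0.55 beside 0.01 over all genes. Of these, 0 passed by edgeR, 8 had an unadjusted p under 0.05 and 1 was called by DESeq2. Against Sham, EMPA–Pre-AMI cardiomyocytes had 3 of 13 called, including Pdk4 (2.19, FDR 0.0461) and Cebpd (1.94, FDR 0.0214), in a comparison where 0.338% of genes passed. Sesn1, which encodes an mTORC1 inhibitor and is a p53 target, was also higher there (1.75, FDR 0.0112), as was Gadd45a (1.53, FDR 0.0495).

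For EMPA–Pre-AMI against Control-AMI, 0 genes of the 8 lists passed in cardiomyocytes by edgeR, with 1 to 7 genes of each list at an unadjusted p under 0.05 and 0 to 4 called by DESeq2. Over all genes edgeR called 2 and DESeq2 880. The partner genes nearest to the threshold were Ccng1, a p53 target that encodes cyclin G1, at 0.63 (FDR 0.0648), and Crtc3 at -1.06 (FDR 0.0663). Without replicate 4, 15.8% of 9470 genes were called, and both passed: Ccng1 was higher by 0.72 (FDR 0.0181) and Crtc3 fell by 1.43 (FDR 0.00880). Ddit4l, with 0 to 11 counts in each cardiomyocyte library, passed the filter only then. Its log2 difference of 2.37 is a description, since it may have passed through the group where it was highest. In that fit 6 of 19 p53 genes (4 higher and 2 lower), 6 of 19 genes of the SIK list (2 higher and 4 lower) and 3 of 20 of the mTORC1 list (all higher) were called. Those of the mTORC1 list included Ddit4l. Leaving out replicate 4 put Ddit4 at a log2 ratio of 1.34 and Sik2 at -3.35 between EMPA–Pre-AMI and Control-AMI, beside 1.21 and -3.01 with it.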

How the data were processed

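The authors prepared 3′ RNA libraries, removed reads of low quality with cutadapt 2.8 and quantified genes with Salmon on GRCm39 (tools and build also named in the submitters' processing notes). They deposited estimated counts per gene, neither normalized nor filtered, for 38 libraries, and these were rounded to whole numbers here. Gene symbols and loci were read from a GENCODE annotation of GRCm39, where 35407 of 35682 genes had a symbol. The members and gene lists were chosen with earlier results of these data known.

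Each population was fitted by itself in R 4.3.3 with edgeR 4.0.16: filterByExpr (minimum count of 10), TMM factors, estimateDisp, glmQLFit and glmQLFTest, with robust estimation and no term but the group. FDR is the Benjamini-Hochberg adjusted p over all genes tested, with a threshold of 0.05. SE is the log2 fold change divided by the square root of F, and 95% intervals use it. ECs and fibroblasts were compared in 1 model of 6 groups. Depth was 1352514 to 4509284 counts per library, and 3 counts, the upper limit for a count of 0, came to 0.665 to 2.22 CPM, for counting error only. p-values measure the spread between the pooled libraries. Of 62 pairs of replicate libraries, 0 had identical counts. Likeness between genes is Pearson's r of log2 CPM with a prior count of 2, less the mean of each population.

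Named genes were the members, 13 partner genes, the 5 genes most like each member, and for each list and comparison up to 2 genes called higher and 2 lower with the largest fold changes. Alternatives were DESeq2 1.42.0, RLE factors, no filter on low counts, a minimum of 10 counts throughout, no robust estimation, only the groups compared, a replicate block, sample-sheet ranges as a term, an FDR threshold of 0.1 for lists in cardiomyocytes, and each library left out. Fits within sample-sheet ranges and without pairs of libraries were added after the data were seen. The ranges were set here from numbers in the labels (1 to 8, 9 to 24, 25 to 36 and above), which do not say what the numbers stand for. The steps were tested on simulated data.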

Additional observations from a re-analysis of the deposited data

Results flagged for a closer look

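In 3 of the 27 groups formed by 3 genes, 3 populations and 3 treatments, the highest library lay farther from the others than the 95% limit of Dixon's test, which chance passes in about 1 of 20 groups. For Ddit4 in Sham ECs this was replicate 2, at 407.9 CPM against 108.5 to 115.9 in the other 3. For Ddit4 in EMPA–Pre-AMI ECs it was replicate 1, at 1452 CPM against 679.6 to 856.4, without which EMPA–Pre-AMI against Control-AMI had a log2 fold change of 0.33 (FDR 0.894). For Cdkn1a in Sham fibroblasts it was replicate 1, at 404.3 CPM against 138.8 to 164.1. The labels number EC Sham replicate 2 as 1742 and fibroblast Sham replicate 1 as 1741, next to each other. This is not particular to them. EC and fibroblast libraries of Control-AMI are also numbered 1663 and 1664, 1665 and 1666, and 1739 and 1738. Those of EMPA–Pre-AMI include 1669 and 1670, and 1671 and 1672. The labels do not say whether libraries with neighboring numbers come from the same hearts. Summed endothelial markers of EC Sham replicate 2 (9214 CPM) lay within the range of the other Sham ECs (9190 to 9971).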

How the results depend on the processing

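Of 666 alternative values of the tested members, 619 kept direction and call, 28 lost the call, 1 gained it and 18 changed sign, all 18 in differences that did not pass. Causes were not tested unless stated. In ECs, the Ddit4 rise after AMI had a log2 fold change of 1.78 with no filter (FDR 0.0520), 1.77 with only the groups compared (FDR 0.0897), 1.86 with sample-sheet ranges as a term (FDR 0.1003) and 1.80 within numbers 9 to 24 (FDR 0.254, with fewer libraries), where Cdkn1a had 1.63. Ddit4 in EMPA–Pre-AMI against Sham lost its call with only the groups compared (2.31, FDR 0.0574) and within numbers 9 to 24 (2.29, FDR 0.145). In fibroblasts numbered above 36, with 1 Sham library, Ddit4 and Cdkn1a fell short of the threshold after AMI (0.94 and 0.82) and in EMPA–Pre-AMI against Sham (0.84 and 0.39). The latter Cdkn1a call was also lost with no filter (1.56, FDR 0.0521) and with only the groups compared (1.54, FDR 0.0525).

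With each library left out, log2 fold changes in ECs ranged from 1.58 to 2.51 for Ddit4 after AMI, from -0.25 to 0.068 for Sik2 after AMI, and from 2.10 to 3.02 for Ddit4 in EMPA–Pre-AMI against Sham. In fibroblasts they ranged from -0.23 to 0.14 for Ddit4 and from -0.18 to 0.19 for Sik2 in EMPA–Pre-AMI against Control-AMI, and from 1.26 to 2.03 for Cdkn1a and 0.65 to 1.03 for Sik2 against Sham. Sham ECs minus Sham fibroblasts ranged from 0.40 to 1.46 for Ddit4, and the difference of AMI effects from -0.41 to 0.64 for Ddit4 and from -0.68 to 0.14 for Cdkn1a. Without both EC Sham replicate 2 and fibroblast Sham replicate 1, the Ddit4 values were 0.70 in Sham and 0.34 for the AMI effects.

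Of the untested log2 ratios of cardiomyocytes, 2 near 0 changed sign with single libraries left out: Sik2 in Control-AMI against Sham (0.047, from -0.094 to 0.14) and Cdkn1a in EMPA–Pre-AMI against Control-AMI (-0.047, from -0.21 to 0.071, and -0.41 in plain CPM). The others moved in size. For EMPA–Pre-AMI against Control-AMI and against Sham, Ddit4 had 0.87 and 2.39 in plain CPM without TMM factors, and 0.70 and 2.17 with replicate 4 as the only EMPA–Pre-AMI library, where Sik2 had -2.29 and -2.24. With each library left out, Sik2 ranged from -3.36 to -2.59 against Control-AMI and from -3.31 to -2.54 against Sham.

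Same-numbered libraries of a population correlated above 0.1 in 3, 4 and 6 of 12 pairs of cardiomyocytes, ECs and fibroblasts. The highest r of these pairs was 0.174, 0.207 and 0.482. Whether replicate numbers pair the libraries was not tested. With a replicate block, no call of a member changed, and Sik2 in EMPA–Pre-AMI against Control-AMI fibroblasts was -0.034, as against -0.81 within numbers 1 to 8.

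Counts of called genes over the alternatives ran from 180 to 889 in ECs after AMI (685 in the report's fit), from 3 to 458 (274) for EMPA–Pre-AMI against Control-AMI and from 159 to 421 (283) against Sham. In fibroblasts they ran from 197 to 819 (445), 0 to 3 (0) and 182 to 985 (546), and in cardiomyocytes from 2 to 20 (6), 0 to 1498 (2) and 2 to 943 (31). The differences of AMI and EMPA effects had 214 to 551 (379) and 151 to 330 (243). At an FDR threshold of 0.1, the mTORC1, p53, cell cycle, SIK, CREB, hypoxia, glucocorticoid and integrated stress lists had 2, 3, 0, 4, 2, 3, 2 and 2 genes called in EMPA–Pre-AMI against Control-AMI cardiomyocytes, in place of 0.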
